A study of Arabidopsis thaliana with 12 samples.

Results

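The chloroplast of a plant cell keeps a small genome of its own, and its transcripts were followed here in whole Arabidopsis seedlings of 2 genotypes at 2 temperatures. Of 88 rows of the expression table whose locus identifier begins with ATCG, the prefix of chloroplast loci, 83 had a level above 0 in at least 3 of the 12 libraries, and these 83 of 27655 genes are described. Of the other 5 rows, 3 were at 0 in every library and 2 were above 0 in 1 or 2 libraries. Levels are TPM, transcripts per 1000000, a unit that divides reads by gene length. That length was the whole gene span, introns included, for 23650 of the 23821 genes above 0. Lengths of the named chloroplast genes matched such spans as well, so levels of different genes compare only roughly.

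The wild type was Columbia (Col), and the mutant was fve-4, labelled as an fve mutant of the gene for FVE, a WD40-repeat protein of histone deacetylase complexes in the nucleus. Seedlings of both genotypes were raised for 7 days at 21 °C in short days (8 h light, 16 h dark), and at ZT1 (1 h after lights on) they either went to 27 °C or stayed at 21 °C. All were harvested at ZT13, after 12 h. Each of the 4 groups (Col at 21 °C, Col at 27 °C, fve-4 at 21 °C and fve-4 at 27 °C) held 3 libraries. The labels do not say whether these came from separate cultures, so the p-values measure the spread between these libraries, which may be technical. FVE itself was at 51.6 ± 1.21 TPM (SD, n = 3) in Col and 5.15 ± 0.298 TPM (SD, n = 3) in fve-4 at 21 °C, and at 40.2 ± 1.19 and 6.82 ± 0.183 TPM at 27 °C. The series asks how FVE acts in the growth response to warmth.

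Chloroplast genes fall into those of photosynthesis (subunits of both photosystems, the cytochrome b6f complex, the ATP synthase, the NDH complex and the large subunit of Rubisco) and those of gene expression (subunits of an RNA polymerase and of the ribosome). A bacterial-type polymerase, whose core subunits are encoded by rpoA, rpoB, rpoC1 and rpoC2 in the chloroplast, transcribes most photosynthesis genes with the help of nuclear sigma factors (SIG) and associated proteins (PAP), while a nuclear-encoded phage-type polymerase transcribes others, the rpoB operon among them. Many chloroplast genes are transcribed together with their neighbours, and the level of each mRNA depends strongly on processing and decay. Chloroplast mRNAs mostly carry no long poly(A) tail, so a library made after poly(A) selection holds only a small share of them. Whether such a selection was made is not given in the sources used here.

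Names were given to 76 of the 83 genes. The table holds identifiers only, and the length behind each row, recovered from its TPM values, was matched to the lengths of chloroplast genes in RefSeq (assembly TAIR10.1). For 67 genes the length alone gave 1 name, and 9 genes whose length is shared (psbA, psbD, atpH, psaC, psaI, petG, rpl36, rps18 and ndhE) were named by their length and by the neighbours in between which they lie. The 7 without a match are called by identifier, and no row was matched to matK or ycf3. Of the 83 genes, 73 passed the filter of at least 1 TPM in at least 3 libraries and entered the tests, 69 of them with a name. The 10 untested genes had between 3 and 55 reads over the 12 libraries, and they include rps16 and copies of rpl2, rpl23, rps7 and ycf2 in the inverted repeat, a stretch that the chloroplast genome holds in a pair of copies. Reads of such copies could be split between them or left out, so rpl2 and rps7 are uncertain. ycf1 also has 2 entries in RefSeq, and whether its reads are affected was not tested. Both rows of rpl23 held 3 reads, and those of ycf2 held 3 and 6. The rpl2 row ATCG01310, in contrast, held 1348 reads against 20 in its copy ATCG00830, and the origin of these reads was not tested.

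Chloroplast genes made up a small part of every library. Their summed level was 1808, 2524 and 1773 TPM in replicates 1, 2 and 3 of Col at 21 °C and 2344, 2399 and 2560 TPM in Col at 27 °C. In fve-4 it was 1640, 1680 and 1620 TPM at 21 °C and 1458, 2033 and 2146 TPM at 27 °C. At 27 °C all 3 fve-4 libraries were below all 3 Col libraries, and at 21 °C the fve-4 libraries were also below those of Col, whereas the libraries at 27 and 21 °C overlapped within each genotype. The mean at 27 °C was 1.20 times that at 21 °C in Col and 1.14 times in fve-4, and fve-4 was at 0.809 of Col at 21 °C and at 0.772 of Col at 27 °C. As a share of reads rather than of TPM, the ratios with warmth were 1.06 in Col and 0.980 in fve-4, so that the direction in fve-4 turned, and fve-4 was at 0.746 and 0.687 of Col. In these whole seedlings, fewer chloroplast-rich cells or fewer chloroplasts cannot be told apart from less RNA in each.

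**Figure D1:**
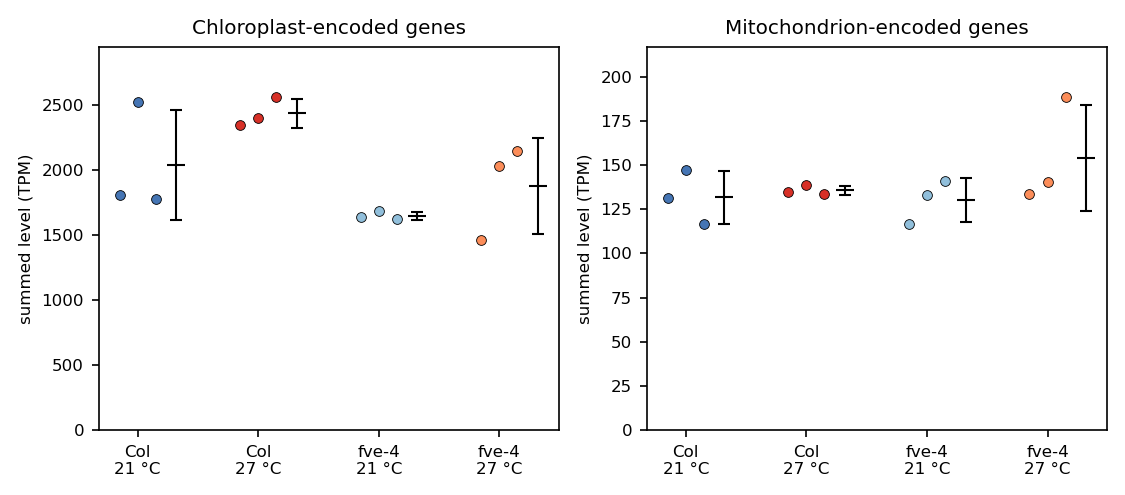
Summed level in TPM of the chloroplast genes (left) and the mitochondrial genes (right) in each library, with 3 points per group and the mean ± SD beside them. The chloroplast sums of fve-4 lie between 1458 and 2146 TPM and those of Col between 1773 and 2560 TPM, while the mitochondrial sums run from 117 to 189 TPM.

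Depth limits many of these genes. The libraries held between 11465313 and 14566380 reads on genes, of which 5079 to 11030, or 0.0360% to 0.0794%, fell on chloroplast genes, and the median gene had 447 reads over the 12 libraries. Of the 12 libraries, 2 stood apart from their group (replicate 2 of Col at 21 °C with the largest sum and replicate 1 of fve-4 at 27 °C with the smallest). Among the 73 tested genes, 58 had their highest level within Col at 21 °C in replicate 2, and 50 had their lowest within fve-4 at 27 °C in replicate 1. The sum of 3 leaf markers (RBCS1A, CA1 and LHCB2.1) ran from 21170 to 29750 TPM, with 28060 to 29750 in Col and 27400 to 27820 in fve-4 at 21 °C, and 21570 to 24690 and 21170 to 21870 at 27 °C. The sum of 6 root markers was 2750 to 2912 TPM in Col and 2222 to 2352 in fve-4 at 21 °C. At 27 °C it was 1787 to 2231 in Col and 2216 to 2971 in fve-4. There 5 of 6 root markers were higher in fve-4 and 2 of the 3 leaf markers (CA1 and LHCB2.1) lower. Of all tested genes, 20.9% were higher and 17.6% lower in that comparison. At 21 °C 0 of 6 root markers were called higher and 1 lower in fve-4, although 4 had a difference above 0, and no leaf marker was called. No leaf or root marker was at 0 in every library, and the part of tissue make-up in the results was not tested.

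Levels ranged widely among the 83 genes. The mean over the 4 groups ran from 0.00635 to 203 TPM with a median of 12.6 TPM, and 12 genes reached 50 TPM. The highest were rpl32, for a protein of the large ribosomal subunit, with 203 TPM, psbI with 155 TPM and psbK with 118 TPM, both for small photosystem II subunits. They were followed by psaJ (104 TPM), psbM (88.5 TPM), psbA (86.9 TPM) and atpB (81.7 TPM), and these 7 genes held 42.9% of the chloroplast TPM. The within-group SDs of 47.5 TPM for rpl32, 13.7 for psbI, 28.2 for psbK, 21.8 for psaJ, 12.9 for psbM and 45.8 for psbA mean that no neighbours in the order from psbK to atpB differ by more than the larger spread of the pair. The first 5 are short (111 bases for psbI, 159 for rpl32), and for such genes a few reads weigh heavily per length. Chloroplast genes held only 0.0360% to 0.0794% of the reads, and whether this order holds for all chloroplast mRNA was not tested. rpl32 was called in none of the comparisons.

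In Col, 33 chloroplast genes were higher in warmth, a share not far above that of all genes. Of 73 tested genes, 33 were higher and 3 lower at 27 °C at an adjusted p under 0.05 (limma, Benjamini-Hochberg over all 19863 genes tested), against 36.7% of all tested genes higher and 25.1% lower (61.9% in either direction). As a share, 45.2% of the chloroplast genes were higher and 49.3% were called in either direction, and their median log2 difference was 0.46 against 0.08 over all genes. The rises covered all 6 ATP synthase genes, 7 of 8 genes of the large and 6 of 10 of the small ribosomal subunit, 4 of 9 NDH genes and 4 of 6 other named genes, but 0 of 5 photosystem I genes, 2 of 14 photosystem II genes and 1 of 6 cytochrome b6f genes. The libraries of the groups did not overlap for 31 higher and 2 lower genes, against 39.3% and 27.2% of all tested genes (66.5% in either direction). Leaving out 1 library moved the count of rises to between 16 (without Col at 21 °C replicate 3) and 37, and to 21 without Col at 27 °C replicate 3. The 3 lower genes were psbA, rbcL and rpoB, and all 3 lost their call without Col at 21 °C replicate 2 or without Col at 27 °C replicate 1, while without Col at 27 °C replicate 2 only rpoB kept it. When levels were rescaled to an equal chloroplast total in every library, 13 were higher and 8 lower in Col, the median of the chloroplast genes was 0.20 and that of all genes moved from 0.08 to -0.16. With quantile normalization 19 were higher and 4 lower.

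In fve-4 the same warmth gave few rises. There 4 of 73 genes were higher (psbK, psbI, atpB and rpl2) and 13 lower at 27 °C, against 25.2% of all tested genes higher and 14.0% lower (39.2% in either direction). The median log2 difference was -0.08 against 0.07 over all genes. Without overlap of the libraries, 5 were higher and 15 lower, against 32.3% and 17.9% of all tested genes (50.2% in either direction). Replicate 1 of fve-4 at 27 °C weighed on this comparison, since without it 10 genes were higher and 8 lower and the median was 0.04. The comparisons of the 2 genotypes share no library, and 3 genes (psbI, atpB and rpl2) were higher with warmth in both, 1 (rpoB) was lower in both and 9 were higher in Col but lower in fve-4. Shares of all tested genes with the same pairs of calls are not given here, so these joint counts have no background.

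The difference between these warm responses was tested as an interaction, the fve-4 change minus the Col change. It was below 0 in 23 genes and above 0 in 2 (psbK and psbI) at an adjusted p under 0.05 (limma), against 18.0% of all tested genes below and 14.4% above 0 (32.4% in either direction). The median was -0.48 against -0.02 over all genes. All 4 RNA polymerase genes, 4 of 8 large and 6 of 10 small ribosomal subunit genes, 4 of 9 NDH genes and 1 of 6 ATP synthase genes were among the 23. No gene of photosystem I, the cytochrome b6f complex or Rubisco was called, with 5, 6 and 1 tested. The 2 calls above 0 became 0 or 1 when any 1 of 10 of the 12 libraries was left out (both were lost without replicate 3 of Col at 21 °C, replicate 1 of Col at 27 °C, replicate 2 of fve-4 at 21 °C, or replicate 2 or 3 of fve-4 at 27 °C).

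Between the genotypes, more chloroplast genes were lower than higher in fve-4 at both temperatures, and most were not called at 21 °C. At 21 °C, 12 of 73 were lower and 3 higher in fve-4 than in Col, against 8.49% of all tested genes lower and 15.3% higher (23.8% in either direction). At 27 °C, 42 were lower and 2 higher, against 17.6% lower and 20.9% higher (38.5% in either direction). The median log2 difference was -0.37 at 21 °C and -0.79 at 27 °C, against 0.05 and 0.02 over all genes. Without overlap of the libraries, 19 were lower and 3 higher in fve-4 at 21 °C, against 15.5% and 25.1% of all tested genes (40.6% in either direction). At 27 °C 46 were lower and 1 higher without overlap, against 24.2% and 25.9% (50.1% in either direction). At 21 °C the count of lower genes rested on single libraries of Col: it was 6 without replicate 2, where the median was -0.18, and 20 without replicate 3 of Col at 21 °C, and 1 gene was higher without replicate 2 of fve-4 at 21 °C. At 27 °C the count of higher genes was 6 without replicate 1 of fve-4. With equal chloroplast totals, 8 were lower and 5 higher at 21 °C, and 33 lower and 8 higher at 27 °C, while the median of the chloroplast genes was -0.11 and -0.42 and that of all genes moved to 0.31 and 0.38. Of the 42 genes lower in fve-4 at 27 °C, 26 had also risen with warmth in Col, but both comparisons use the same Col libraries at 27 °C. The share of all tested genes with this pair of calls is not given here.

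**Figure D2:**
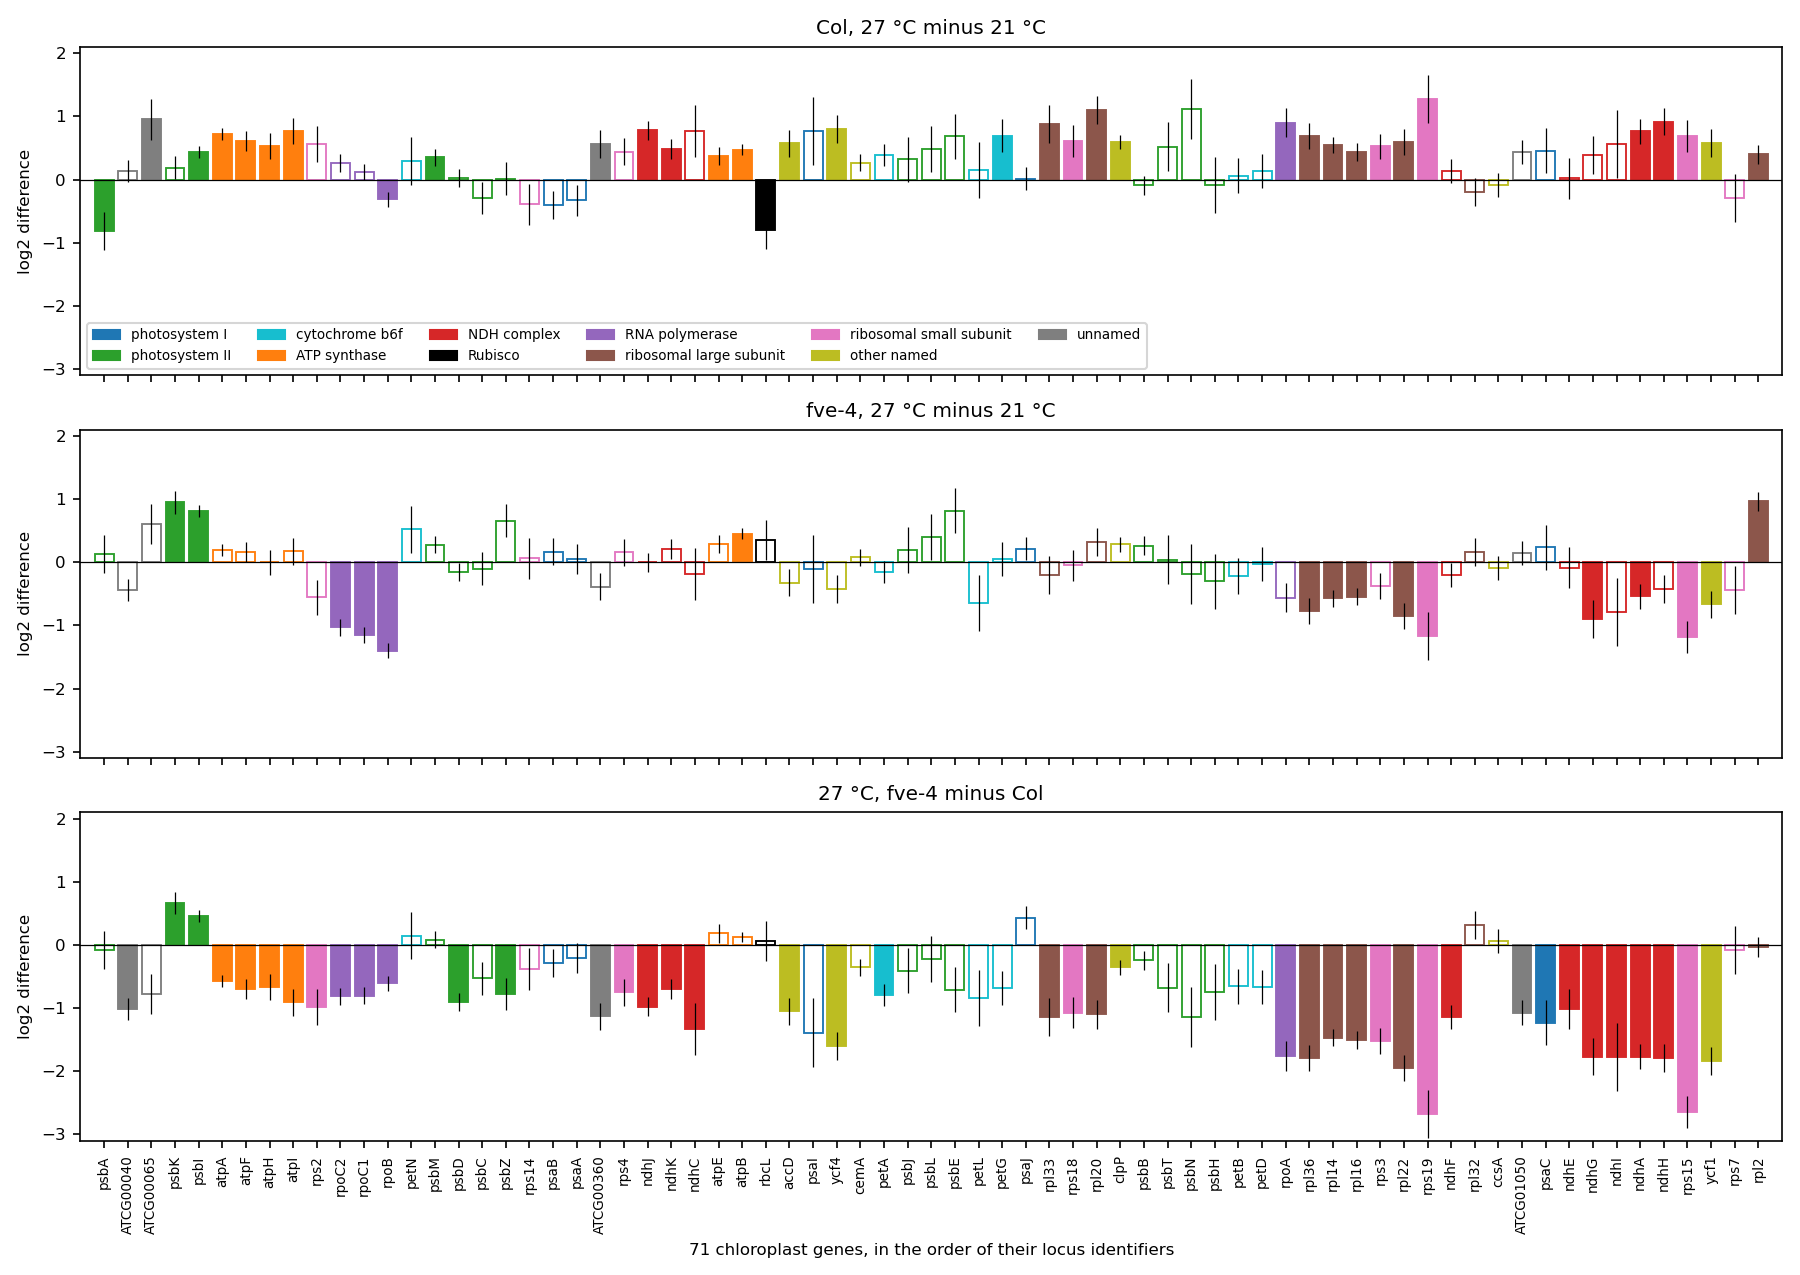
Difference of mean log2(TPM + 1) for 71 tested chloroplast genes in the order of their locus identifiers, for warmth in Col (top), warmth in fve-4 (middle) and fve-4 against Col at 27 °C (bottom). Filled bars passed an adjusted p under 0.05, open bars did not, colours mark functional groups and lines are ± 1 standard error. The block from rpoA to rps19 is filled upward in Col, and all 7 of its bars are filled downward in the bottom panel.

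The genes of the transcription machinery moved apart in the genotypes. rpoB, for a core subunit of the bacterial-type polymerase, was at 17.3, 16.6 and 15.8 TPM in Col at 21 °C and 11.5, 14.6 and 13.5 TPM in Col at 27 °C. In fve-4 it was at 21.5, 22.5 and 26.5 TPM at 21 °C and 9.56, 8.55 and 6.93 TPM at 27 °C. The highest group was fve-4 at 21 °C, the lowest fve-4 at 27 °C, and no 2 of the 4 groups overlapped. It fell in fve-4 with warmth by 1.40 on the log2 scale (SE 0.12, limma adjusted p = 9.31e-07), and in Col by 0.31 (SE 0.12, adjusted p = 0.0322), the latter call being lost without replicate 1 or 2 of Col at 21 °C or replicate 1 of Col at 27 °C. At 21 °C it was 0.48 higher in fve-4 than in Col (adjusted p = 0.0103), and at 27 °C it was lower, with a log2 difference of -0.61 (adjusted p = 0.00126) that was not called with equal chloroplast totals.

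rpoC1 and rpoC2, the neighbours of rpoB and further core subunits, followed the same pattern in fve-4. rpoC1 was at 9.42, 11.0 and 9.06 TPM in fve-4 at 21 °C and 4.40, 3.63 and 3.58 TPM at 27 °C, against 6.84, 6.66 and 6.81 TPM and 6.73, 9.34 and 6.58 TPM in Col. fve-4 at 27 °C lay below all other libraries, and fve-4 at 21 °C lay above Col at 21 °C but overlapped Col at 27 °C. Its change with warmth in fve-4 was -1.15 (SE 0.13, limma adjusted p = 1.32e-05), and in Col it was 0.12 and not called (adjusted p = 0.432). rpoC2 changed by -1.03 in fve-4 (adjusted p = 6.23e-05) and by 0.27 in Col (adjusted p = 0.111, not called). The interactions were -1.08 for rpoB, -1.27 for rpoC1 and -1.29 for rpoC2, and each was called under all 24 alternatives tried. At 21 °C the 3 genes were higher in fve-4 by 0.47 to 0.48. For rpoC1 and rpoC2 this call was lost without replicate 2 of fve-4, for rpoC1 also without replicate 2 of Col, and for rpoC2 without replicate 1 or 3 of Col or replicate 3 of fve-4.

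rpoA, the fourth core subunit, lies elsewhere, at the end of a run of ribosomal protein genes, and had another pattern. It was at 20.3, 25.7 and 11.39 TPM in Col at 21 °C, 33.1, 32.7 and 39.1 TPM in Col at 27 °C, 12.3, 19.2 and 13.2 TPM in fve-4 at 21 °C and 8.35, 11.9 and 8.91 TPM in fve-4 at 27 °C. Col at 27 °C stood above every other library, and fve-4 at 27 °C stood below both fve-4 at 21 °C and Col at 27 °C. rpoA rose with warmth in Col (log2 difference 0.90, SE 0.23, limma adjusted p = 0.00407), and in fve-4 its change was -0.56 (adjusted p = 0.0739, not called). At 21 °C the genotypes differed by -0.29 (adjusted p = 0.396, not called), unlike the 3 other core subunits, and at 27 °C fve-4 was lower by a log2 difference of -1.76 (adjusted p = 9.18e-05).

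**Figure D3:**
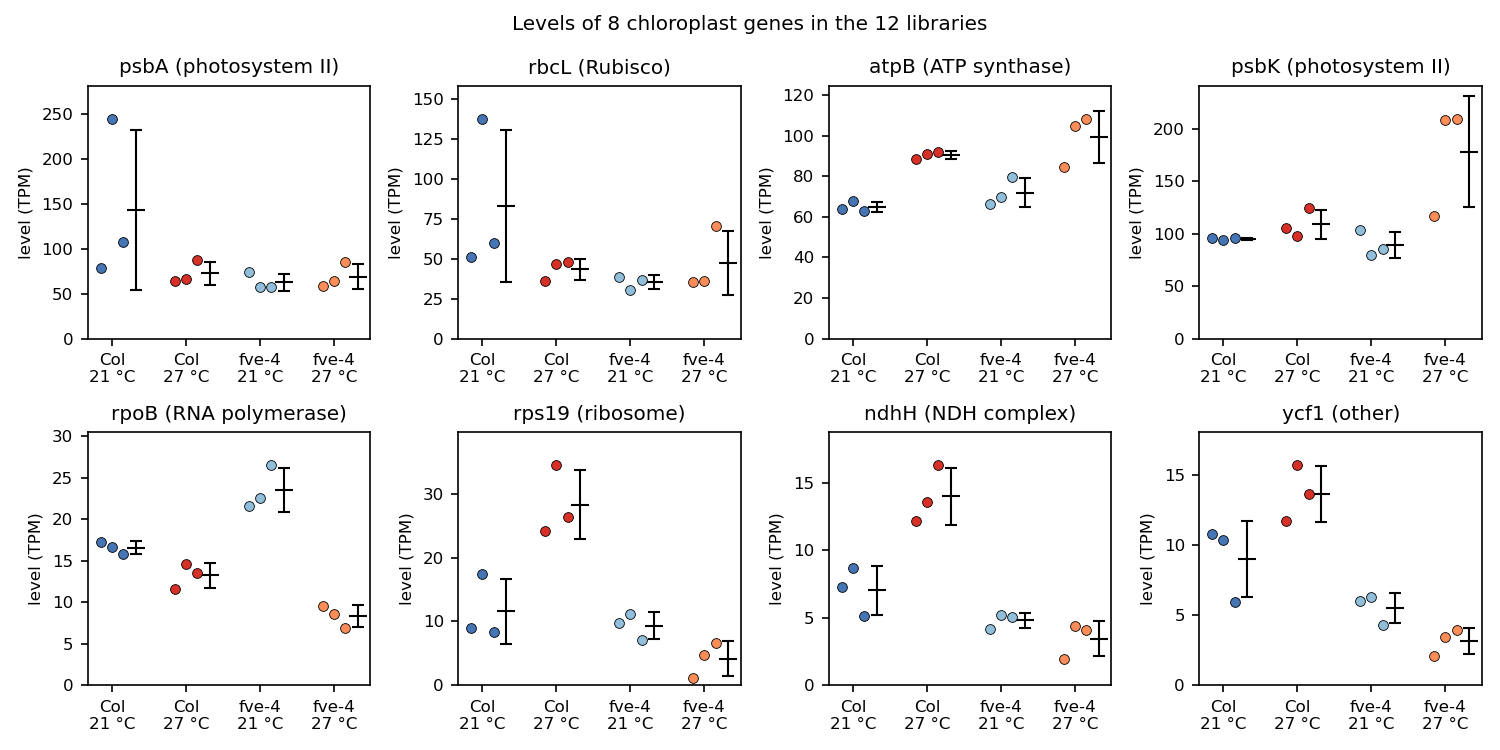
Level in TPM of 8 chloroplast genes in the 12 libraries, 3 points per group with the mean ± SD beside them, each panel starting at 0. The 3 fve-4 libraries at 27 °C lie below the 3 Col libraries at 27 °C for rpoB, rps19, ndhH and ycf1, while 1 Col library at 21 °C lies far above the others for psbA (245 TPM) and rbcL (137 TPM).

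In the run of genes from rps19 to rpoA, the 7 reported here (rpoA and the ribosomal protein genes rps19, rpl22, rps3, rpl16, rpl14 and rpl36) separated the genotypes at 27 °C. All 7 were higher in Col at 27 °C than at 21 °C (median log2 difference 0.60), 5 of 7 were lower in fve-4 at 27 °C than at 21 °C (median -0.57), and all 7 had an interaction below 0 (median -1.44). At 27 °C all 7 were lower in fve-4 than in Col (median -1.76), and this count was 7 under every alternative tried. Of all tested genes, 36.7% were higher in Col and 14.0% lower in fve-4 with warmth. An interaction below 0 was called in 18.0% of all tested genes, and 17.6% were lower in fve-4 at 27 °C. Neighbours may be transcribed together, so these 7 genes are not 7 independent observations. The rise in Col was less firm, with 2 to 7 of the 7 called over the alternatives, and for rpl14, rpl16, rpl36, rps3 and rpl22 the call was lost with equal chloroplast totals.

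rps19, for a protein of the small ribosomal subunit, was at 9.01, 17.5 and 8.31 TPM in Col at 21 °C and 24.2, 34.55 and 26.4 TPM in Col at 27 °C. In fve-4 it was at 9.74, 11.2 and 7.08 TPM at 21 °C and 1.16, 4.75 and 6.56 TPM at 27 °C, the first of these from only 2 reads. Col at 27 °C was above all other libraries and fve-4 at 27 °C below all others. Its log2 difference was 1.28 with warmth in Col (SE 0.38, limma adjusted p = 0.00922), -1.17 in fve-4 (SE 0.38, adjusted p = 0.025) and -2.68 between fve-4 and Col at 27 °C (SE 0.38, adjusted p = 0.000138). The fall in fve-4 was lost without replicate 1 of fve-4 at 27 °C or without replicate 1 or 2 of fve-4 at 21 °C.

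rpl14, the most abundant of these 7 and a gene of the large subunit, was at 69.1, 85.6 and 58.6 TPM in Col at 21 °C, 92.0, 102 and 117 TPM in Col at 27 °C, 53.3, 52.8 and 58.4 TPM in fve-4 at 21 °C and 31.2, 36.4 and 42.9 TPM in fve-4 at 27 °C. The 4 groups did not overlap, although Col and fve-4 at 21 °C lay close. It rose in Col by 0.55 (limma adjusted p = 0.00254), fell in fve-4 by 0.57 (adjusted p = 0.00363) and was lower in fve-4 at 27 °C with a difference of -1.47 (adjusted p = 4.41e-06).

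Of the others, rpl36 and rpl22 are named for their size of change. rpl36, for a small protein of the large subunit, went from 59.6 ± 19.95 to 92.6 ± 5.77 TPM (SD, n = 3) with warmth in Col and from 45.2 ± 1.92 to 26.5 ± 6.23 TPM in fve-4, with an interaction of -1.46 (SE 0.29, limma adjusted p = 0.00203). rpl22, for another large subunit protein, went from 29.2 ± 8.15 to 43.9 ± 7.05 TPM in Col and from 19.8 ± 3.296 to 10.7 ± 2.64 TPM in fve-4. Its fall in fve-4 was -0.85 (adjusted p = 0.00585), and at 27 °C the genotypes differed by -1.95 (adjusted p = 1.86e-05). Its reads may include those of rps3, whose gene it overlaps.

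Ribosomal protein genes outside this run differed among themselves. rps15, for a small subunit protein and a neighbour of ycf1 and ndhH, was at 11.43, 15.9 and 11.0 TPM in Col at 21 °C, 17.1, 25.1 and 21.5 TPM in Col at 27 °C, 5.39, 9.27 and 6.72 TPM in fve-4 at 21 °C and 3.03, 3.72 and 1.25 TPM in fve-4 at 27 °C. The 4 groups did not overlap. It fell in fve-4 by 1.19 (SE 0.25, limma adjusted p = 0.00215), and at 27 °C the genotypes differed by -2.65 (SE 0.25, adjusted p = 7.23e-06), with 2 to 6 reads per library behind the values of fve-4 at 27 °C. Its lower level in fve-4 at 21 °C (-0.77, adjusted p = 0.0417) was called in 12 of 25 alternatives, and it was lost without any 1 library of Col at 21 °C or without replicate 1 or 3 of fve-4 at 21 °C.

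rpl20, for a large subunit protein, was at 8.12, 16.6 and 11.35 TPM in Col at 21 °C and 32.4, 22.6 and 23.7 TPM in Col at 27 °C, with no overlap. It rose in Col by 1.10 (SE 0.22, limma adjusted p = 0.000731), and in fve-4 its levels were 9.25 ± 2.56 and 11.6 ± 1.86 TPM (SD, n = 3) at 21 and 27 °C, with a difference of 0.32 that was not called. At 27 °C it was lower in fve-4 by a difference of -1.10 (adjusted p = 0.00193). rps4, for a small subunit protein, went from 7.21 ± 2.23 to 10.02 ± 2.19 TPM in Col (0.44, adjusted p = 0.0884, not called) and was lower in fve-4 at 27 °C (-0.75, adjusted p = 0.0142). That difference was not called without replicate 3 of Col or replicate 1 of fve-4 at 27 °C and with equal chloroplast totals.

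rpl2, for a large subunit protein, went the other way, though its reads are uncertain because its gene lies in the inverted repeat. Its row was at 9.77, 15.7 and 10.3 TPM in Col at 21 °C, 14.7, 16.3 and 16.2 TPM in Col at 27 °C, 6.26, 7.34 and 8.70 TPM in fve-4 at 21 °C and 13.5, 16.2 and 16.5 TPM in fve-4 at 27 °C. The fve-4 libraries at 21 °C were below all others, and the groups at 27 °C overlapped. It rose in fve-4 by 0.96 (SE 0.15, limma adjusted p = 0.000242), a call kept under all 25 alternatives. At 21 °C it was lower in fve-4 by a difference of -0.59 (adjusted p = 0.0137), a call lost without replicate 1 of fve-4 at 21 °C and with equal chloroplast totals. At 27 °C the genotypes differed by -0.03 (adjusted p = 0.894, not called).

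The NDH complex carries electrons around photosystem I in cyclic flow, and the 9 of its chloroplast genes that were named and tested here were all lower in fve-4 than in Col at 27 °C (median log2 difference -1.33). That count lay between 6 and 9 over the alternatives. In the same comparison 17.6% of all tested genes and 57.5% of the 73 tested chloroplast genes were lower. All 4 RNA polymerase genes and 8 of 10 small ribosomal subunit genes were lower there as well. Their summed level was 76.4 ± 27.7 TPM in Col and 50.9 ± 4.72 TPM in fve-4 at 21 °C (SD, n = 3), and 113 ± 6.88 and 41.7 ± 7.92 TPM at 27 °C. ndhH was at 7.29, 8.68 and 5.10 TPM in Col at 21 °C, 12.1, 13.5 and 16.3 TPM in Col at 27 °C, 4.19, 5.17 and 5.01 TPM in fve-4 at 21 °C and 1.92, 4.35 and 4.08 TPM in fve-4 at 27 °C. Every Col library at 27 °C was above every other library, while the 2 fve-4 groups overlapped. It rose in Col by 0.92 (SE 0.22, limma adjusted p = 0.00239), its change in fve-4 was -0.43 (adjusted p = 0.142, not called), and at 27 °C the genotypes differed by -1.79 (adjusted p = 4.87e-05).

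ndhA, for another NDH subunit, was at 7.55, 11.9 and 6.64 TPM in Col at 21 °C, 14.3, 16.5 and 14.6 TPM in Col at 27 °C, 5.69, 6.26 and 5.56 TPM in fve-4 at 21 °C and 2.55, 5.06 and 3.85 TPM in fve-4 at 27 °C. No 2 of the groups overlapped. It rose in Col by 0.77 (limma adjusted p = 0.004) and fell in fve-4 by 0.54 (adjusted p = 0.045), the latter call kept in 13 of 25 alternatives. That call was lost without any 1 library of fve-4 at 21 °C, without replicate 1 or 3 of fve-4 at 27 °C, and, although the contrast does not use them, without replicate 1 of Col at 21 °C or replicate 1 or 2 of Col at 27 °C. ndhG went from 6.39 ± 2.30 to 3.01 ± 1.47 TPM (SD, n = 3) with warmth in fve-4 (-0.90, adjusted p = 0.0277), a call lost without replicate 2 of fve-4 at 21 °C or replicate 1 or 2 at 27 °C.

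At 21 °C all 9 of these NDH genes had a log2 difference below 0 between fve-4 and Col, but only 1 was called. That gene, ndhF, which lies apart from the others, was thus the only one of them called lower in fve-4 at both temperatures. Its level at 21 °C was 3.13, 3.85 and 2.275 TPM in Col and 1.07, 1.84 and 1.12 TPM in fve-4, and at 27 °C it was 3.77, 3.57 and 3.02 TPM in Col and 1.01, 1.33 and 0.743 TPM in fve-4. The genotypes did not overlap at either temperature. The difference was -0.80 at 21 °C (SE 0.19, limma adjusted p = 0.00843) and -1.14 at 27 °C (adjusted p = 0.000458), and the former was not called with equal chloroplast totals. The difference with warmth was called in neither genotype (0.14 in Col and -0.20 in fve-4, adjusted p = 0.54 and 0.422).

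The ATP synthase genes, for the enzyme that makes ATP from the proton gradient of the thylakoid, were all 6 higher at 27 °C in Col (median log2 difference 0.57), in 1 to 6 of 6 genes over the alternatives. Of all tested genes, 36.7% were higher there. atpA, for a subunit of the catalytic head, was at 26.0, 28.6 and 23.3 TPM at 21 °C and 40.8, 48.0 and 41.4 TPM at 27 °C in Col, and at 26.8, 25.8 and 22.6 TPM and 25.9, 29.1 and 31.7 TPM in fve-4. Only Col at 27 °C stood apart from the other 3 groups, which overlapped. It rose in Col by 0.72 (SE 0.10, limma adjusted p = 2.09e-05), its change in fve-4 was 0.20 (adjusted p = 0.125, not called), and the interaction was -0.52 (adjusted p = 0.0109). With equal chloroplast totals the rise of atpA in Col, its interaction and its lower level in fve-4 at 27 °C were not called.

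atpB, for the other subunit of the catalytic head, rose in both genotypes. It was at 64.1, 67.65 and 63.1 TPM in Col at 21 °C, 88.5, 90.8 and 92.2 TPM in Col at 27 °C, 66.2, 70.0 and 79.7 TPM in fve-4 at 21 °C and 84.8, 105 and 108 TPM in fve-4 at 27 °C. The libraries at 27 °C were above those at 21 °C, and the genotypes overlapped at each temperature. The log2 difference was 0.47 in Col (SE 0.08, limma adjusted p = 0.000256) and 0.46 in fve-4 (SE 0.08, adjusted p = 0.000835), with an interaction of -0.02 ± 0.12 (SE, adjusted p = 0.921). Neither rise was called with equal chloroplast totals. The neighbouring atpE overlaps atpB and differed by 0.18 between the genotypes at 27 °C (adjusted p = 0.341, not called).

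The 4 ATP synthase genes that lie together next to rps2 (atpI, atpH, atpF and atpA) were those lower in fve-4 at 27 °C. Of all tested genes, 17.6% were lower there. atpI, for a membrane subunit, was at 13.4, 19.3 and 15.4 TPM in Col and 11.9, 14.96 and 11.2 TPM in fve-4 at 21 °C, and at 21.8, 33.1 and 29.8 TPM in Col and 9.72, 18.3 and 16.4 TPM in fve-4 at 27 °C. The genotypes overlapped at 21 °C but not at 27 °C, where the difference was -0.91 (SE 0.21, limma adjusted p = 0.00416). atpH, for the ring subunit, was at 83.8 ± 14.5 TPM in Col and 52.3 ± 4.58 TPM in fve-4 at 27 °C (SD, n = 3, difference -0.66, adjusted p = 0.021), a call lost without replicate 2 of Col or replicate 1 or 2 of fve-4 at 27 °C. With equal chloroplast totals atpI alone of the 4 kept its call.

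Photosystem II genes, for the complex that splits water, did not move together. psbA, for the reaction centre protein D1, was at 78.1, 245 and 107 TPM in Col at 21 °C, 63.9, 66.5 and 87.2 TPM in Col at 27 °C, 73.9, 57.2 and 57.1 TPM in fve-4 at 21 °C and 58.3, 63.8 and 85.0 TPM in fve-4 at 27 °C. Replicate 2 of Col at 21 °C was above every other library, the Col groups overlapped, and at 21 °C all Col libraries were above those of fve-4. psbA was lower at 27 °C in Col (-0.82, SE 0.30, limma adjusted p = 0.0303) and lower in fve-4 at 21 °C (-1.02, SE 0.30, adjusted p = 0.0262). Both calls were lost without replicate 2 of Col at 21 °C, the former also without replicate 1 or 2 of Col at 27 °C and the latter also without replicate 2 or 3 of fve-4 at 21 °C. At 27 °C the genotypes differed by -0.07 (adjusted p = 0.867, not called).

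rbcL, for the large subunit of the carbon-fixing enzyme Rubisco, had the same outlying library. It was at 51.3, 137 and 59.6 TPM in Col at 21 °C, 35.8, 46.3 and 47.7 TPM in Col at 27 °C, 38.7, 30.6 and 36.4 TPM in fve-4 at 21 °C and 35.4, 36.1 and 70.6 TPM in fve-4 at 27 °C. The Col groups did not overlap, nor did the genotypes at 21 °C. Its difference was -0.79 with warmth in Col (SE 0.31, limma adjusted p = 0.041) and -1.07 between fve-4 and Col at 21 °C (SE 0.31, adjusted p = 0.0243). Both calls were lost without replicate 2 of Col at 21 °C, the former also without replicate 1 or 2 of Col at 27 °C or replicate 3 of fve-4 at 21 °C, the latter also without replicate 2 of fve-4 at 21 °C.

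psbK and psbI, neighbouring genes for small photosystem II subunits, were the 2 genes higher in fve-4 than in Col at 27 °C. psbK was at 95.6, 93.7 and 95.5 TPM in Col at 21 °C, 105, 97.5 and 124 TPM in Col at 27 °C, 103, 79.85 and 84.9 TPM in fve-4 at 21 °C and 117, 208 and 209 TPM in fve-4 at 27 °C. Replicates 2 and 3 of fve-4 at 27 °C stood above all other libraries, while replicate 1 lay among those of Col at 27 °C. It rose in fve-4 by 0.95 (SE 0.18, limma adjusted p = 0.000842), and at 27 °C the genotypes differed by 0.66 (adjusted p = 0.0102). The interaction of 0.76 (adjusted p = 0.0335) was called in 13 of 24 alternatives.

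psbI was at 138, 99.7 and 120 TPM in Col at 21 °C, 154, 181 and 146 TPM in Col at 27 °C, 124, 126 and 121 TPM in fve-4 at 21 °C and 222, 224 and 211 TPM in fve-4 at 27 °C. All fve-4 libraries at 27 °C were above all others, and Col at 27 °C was above both groups at 21 °C. It rose by 0.43 in Col (SE 0.10, limma adjusted p = 0.00151) and by 0.82 in fve-4 (SE 0.10, adjusted p = 1.98e-05), and the genotypes differed by 0.46 at 27 °C (adjusted p = 0.00255). The rise in Col was not called with equal chloroplast totals, and the interaction of 0.39 (adjusted p = 0.0448) was called in 8 of 24 alternatives.

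psbD, for the reaction centre protein D2, was lower in fve-4 at both temperatures. Its level at 21 °C was 22.2, 31.1 and 21.2 TPM in Col and 14.3, 14.1 and 14.9 TPM in fve-4, and at 27 °C it was 24.0, 23.4 and 27.6 TPM in Col and 11.1, 11.5 and 16.5 TPM in fve-4, with no overlap between the genotypes. The difference was -0.72 at 21 °C (SE 0.15, limma adjusted p = 0.00351) and -0.90 at 27 °C (SE 0.15, adjusted p = 0.000421). The difference with warmth was 0.03 in Col and -0.16 in fve-4, neither of them called (adjusted p = 0.892 and 0.433). Its reads may include those of psbC, which it overlaps, and at 21 °C the difference was not called with equal chloroplast totals.

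psbZ, for a small photosystem II subunit downstream of psbC, was at 16.2, 25.0 and 18.8 TPM in Col and 5.07, 7.86 and 7.60 TPM in fve-4 at 21 °C, without overlap. The difference of -1.42 (SE 0.26, limma adjusted p = 0.0018) was the only one at 21 °C that was called under all 25 alternatives. Only 6, 9 and 8 reads stood behind the values of psbZ in fve-4 at 21 °C. At 27 °C psbZ was at 20.2 ± 4.06 TPM in Col and 11.95 ± 5.75 TPM in fve-4 (SD, n = 3, difference -0.78, limma adjusted p = 0.031). This was lost without replicate 1 or 3 of Col or replicate 1 or 2 of fve-4 and with equal chloroplast totals. psbB, for an inner antenna protein, was at 27.2 ± 6.56 TPM in Col and 17.4 ± 1.91 TPM in fve-4 at 21 °C (-0.60, adjusted p = 0.0119), a call lost without replicate 2 of fve-4 and with equal chloroplast totals.

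Photosystem I genes gave 2 calls over the 5 comparisons. psaB, for one of the large reaction centre proteins, was at 24.7, 33.4 and 19.8 TPM in Col and 14.6, 11.38 and 14.98 TPM in fve-4 at 21 °C, without overlap (-0.86, SE 0.22, limma adjusted p = 0.0125). It was lost without replicate 2 of Col or replicate 2 of fve-4. psaA, for its partner in the reaction centre, was at 20.3 ± 8.92 and 12.4 ± 0.947 TPM (SD, n = 3) there, with a difference of -0.58 that was not called (adjusted p = 0.0982). psaC, for the subunit that carries iron-sulfur clusters, lies among NDH genes and was lower in fve-4 at 27 °C, with 14.8 ± 2.84 TPM in Col and 5.82 ± 1.76 TPM in fve-4 (-1.23, adjusted p = 0.0159). That call was lost without replicate 2 of Col or replicate 1 of fve-4 at 27 °C.

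Of the cytochrome b6f genes, for the complex between the photosystems, petA was lower in fve-4 at 27 °C and petG higher in Col with warmth. petA, for cytochrome f, was at 18.2, 20.9 and 17.9 TPM in Col and 8.41, 9.81 and 14.2 TPM in fve-4 at 27 °C, without overlap (-0.79, SE 0.17, limma adjusted p = 0.00327), a call lost with equal chloroplast totals. petG, for a small subunit, went from 10.2 ± 2.79 to 17.7 ± 7.99 TPM (SD, n = 3) in Col (0.69, limma adjusted p = 0.035). This call was kept in 14 of 25 alternatives and lost without replicate 2 or 3 of Col at 21 °C or replicate 3 of Col at 27 °C. petB, for cytochrome b6, was called in no comparison, with 9.58 ± 5.22 and 9.30 ± 1.73 TPM in Col and 6.58 ± 0.992 and 5.61 ± 1.61 TPM in fve-4 at 21 and 27 °C.

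Among the remaining genes, ycf1, for a large protein of the inner envelope, was at 10.8, 10.3 and 5.91 TPM in Col at 21 °C, 11.7, 15.7 and 13.6 TPM in Col at 27 °C, 5.99, 6.25 and 4.25 TPM in fve-4 at 21 °C and 2.09, 3.40 and 3.91 TPM in fve-4 at 27 °C. Col at 27 °C was the highest group and fve-4 at 27 °C the lowest, each without overlap with any other group. The genotypes differed at 27 °C by -1.84 (SE 0.22, limma adjusted p = 3.91e-05), and ycf1 fell in fve-4 by 0.67 (adjusted p = 0.0275), a call lost without replicate 1 or 2 of fve-4 at 21 °C or replicate 1 at 27 °C. Its rise in Col of 0.58 (adjusted p = 0.0328) was lost without replicate 3 of Col at 21 °C or replicate 2 or 3 of Col at 27 °C. RefSeq holds 2 entries named ycf1, and a loss of reads between them was not tested.

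ycf4, for an assembly factor of photosystem I, went from 8.35 ± 2.09 to 15.1 ± 1.68 TPM (SD, n = 3) with warmth in Col (0.81, limma adjusted p = 0.00578) and from 6.20 ± 1.45 to 4.46 ± 1.69 TPM in fve-4 (-0.42, adjusted p = 0.145, not called). Its interaction was -1.23 (SE 0.31, adjusted p = 0.00858). accD, for a subunit of the acetyl-CoA carboxylase of fatty acid synthesis, was at 3.22, 5.01 and 3.49 TPM in Col and 1.66, 0.791 and 1.70 TPM in fve-4 at 27 °C, without overlap (-1.05, SE 0.21, adjusted p = 0.00192). clpP, for a protease subunit, rose in Col from 9.92 ± 1.43 to 15.4 ± 0.641 TPM (0.59, SE 0.12, limma adjusted p = 0.000571). Its lower level in fve-4 at 27 °C (-0.35, adjusted p = 0.03) became 0.01 with equal chloroplast totals and was lost without any 1 library of Col at 27 °C or replicate 1 or 3 of fve-4 at 27 °C.

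The 4 tested genes without a name were also lower in fve-4 at 27 °C in 3 cases, against 17.6% of all tested genes. ATCG00360 was at 6.07, 8.67 and 7.01 TPM in Col and 1.80, 2.55 and 4.28 TPM in fve-4 at 27 °C, without overlap (-1.13, SE 0.22, limma adjusted p = 0.00128). ATCG01050 was lower in fve-4 at 21 °C, with 7.32, 8.14 and 5.89 TPM in Col and 2.42, 4.23 and 4.84 TPM in fve-4 (-0.78, adjusted p = 0.011, not called with equal chloroplast totals), and at 27 °C (-1.07, adjusted p = 0.00084). ATCG00065 rose in Col from 14.1 ± 4.54 to 27.8 ± 6.76 TPM (0.95, adjusted p = 0.0185), a call lost without replicate 3 of Col at 21 °C or replicate 1 or 3 of Col at 27 °C.

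Over all 5 comparisons, 54 of the 73 tested genes were called at least once and 19 in none. The share of all tested genes called at least once is not given here, so these counts have no background. The 19 include petN, petL, petB and petD of the cytochrome b6f complex, 7 of 14 photosystem II genes (psbC, psbJ, psbL, psbE, psbT, psbN and psbH), psaA, psaI and psaJ of photosystem I, and rpl32, rps7, rps14, ccsA and cemA. The neighbours psbB, psbT, psbH, petB and petD gave a single call between them, that of psbB at 21 °C. The library kit is not stated to keep strand in the sources used here, so reads of psbN cannot be told apart from those of psbT and psbH on the other strand.

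Nuclear genes whose products serve chloroplast transcription changed too, and more of them were lower than higher with warmth in both genotypes. Of 21 such genes, 14 were lower and 3 higher at 27 °C in Col, and 13 lower and 1 higher in fve-4, with medians of -0.46 and -0.29. Of all tested genes, 25.1% were lower and 36.7% higher in Col, and 14.0% lower and 25.2% higher in fve-4. PAP5, also called HEMERA, a protein of the bacterial-type polymerase that also acts in warm growth, was at 122, 116 and 116 TPM in Col at 21 °C, 55.3, 50.4 and 51.0 TPM in Col at 27 °C, 107, 109 and 113 TPM in fve-4 at 21 °C and 74.8, 73.7 and 74.0 TPM in fve-4 at 27 °C. The groups at 27 °C were below those at 21 °C, and fve-4 was above Col at 27 °C. It fell by 1.16 in Col (SE 0.05, limma adjusted p = 4.2e-10) and by 0.56 in fve-4, with an interaction of 0.60 (SE 0.07, adjusted p = 3.4e-05).

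The interaction was above 0 in 9 and below 0 in 2 of these 21 genes, against 14.4% and 18.0% of all tested genes. PAP3 fell from 98.7 ± 0.0208 to 43.4 ± 0.312 TPM (SD, n = 3) in Col and from 84.9 ± 1.52 to 61.1 ± 2.18 TPM in fve-4 (interaction 0.70, limma adjusted p = 6.3e-06). PAP4, an iron superoxide dismutase, fell in Col by 0.62 and differed by 0.10 in fve-4, where it was not called (interaction 0.72, adjusted p = 6.8e-05). FLN2, a kinase-like protein of the polymerase complex, fell most in both, with a log2 difference of -1.497 in Col and -0.9999 in fve-4.

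The 2 genes with an interaction below 0 were the sigma factors SIG1 and SIG3. SIG3 was at 40.1, 43.9 and 40.9 TPM in Col at 21 °C, 70.2, 73.6 and 77.6 TPM in Col at 27 °C, 48.0, 48.1 and 46.5 TPM in fve-4 at 21 °C and 54.5, 57.4 and 55.0 TPM in fve-4 at 27 °C. No 2 of these groups overlapped. It rose by 0.81 in Col (SE 0.05, limma adjusted p = 2e-08) and by 0.22 in fve-4 (adjusted p = 0.0048), with an interaction of -0.59 (adjusted p = 9.1e-05). SIG1 rose by 0.44 in Col and differed by -0.01 in fve-4, where it was not called. SIG5, the sigma factor known for psbD transcription under light and stress, stayed between 0.870 and 1.97 TPM and was called in no comparison. RPOTp, the phage-type polymerase of the chloroplast, was lower in fve-4 at 21 °C (-0.49, adjusted p = 0.00064), with 35.6 ± 3.18 TPM in Col and 25.1 ± 1.83 TPM in fve-4, whereas rpoB, rpoC1 and rpoC2 were higher there.

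**Figure D4:**
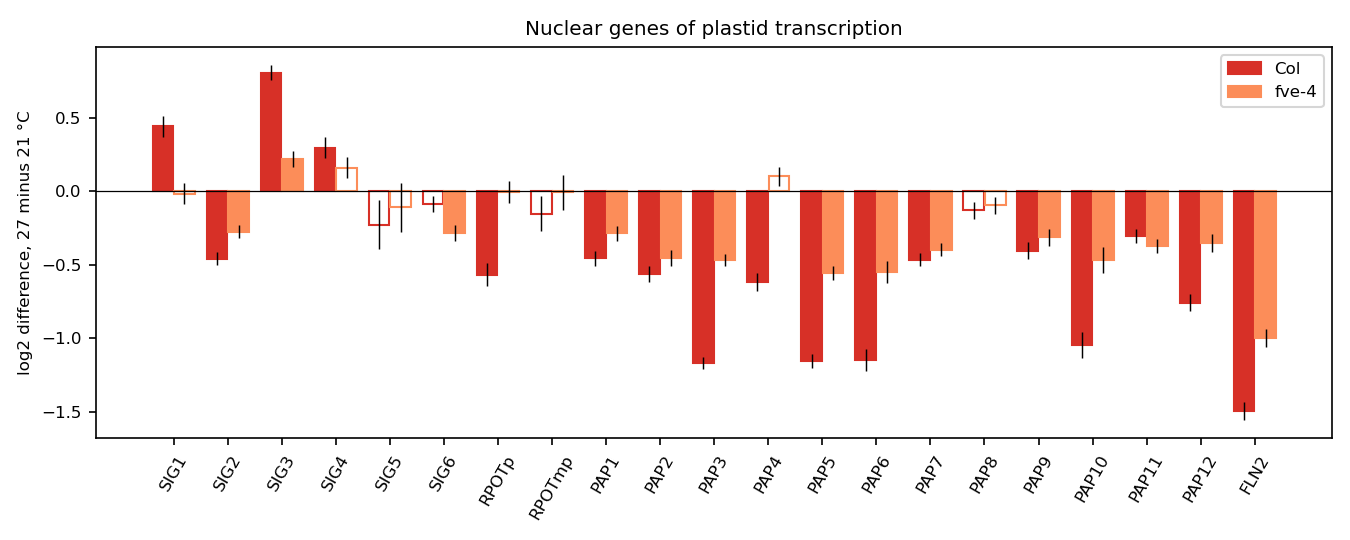
Difference of mean log2(TPM + 1) between 27 and 21 °C in Col (red) and fve-4 (orange) for the 21 nuclear genes of chloroplast transcription, with ± 1 standard error. Filled bars passed an adjusted p under 0.05 and open bars did not: all 12 PAP genes and FLN2 lie below 0 in Col, PAP4 alone of these lies above 0 in fve-4 (0.10, open bar), and SIG3 rises by 0.81 in Col and 0.22 in fve-4.

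Nuclear genes for chloroplast RNA processing and nuclear partners of the chloroplast-encoded subunits were also compared. Of 12 RNA processing genes, 9 were lower and 2 higher at 27 °C in Col, and 6 lower and 1 higher in fve-4, against the same shares of all tested genes (25.1% and 36.7% in Col, 14.0% and 25.2% in fve-4). RNJ, the chloroplast RNase J, fell from 73.2 ± 0.893 to 39.8 ± 1.56 TPM (SD, n = 3) in Col and from 70.3 ± 1.91 to 46.3 ± 0.932 TPM in fve-4, with a log2 difference of -0.86 (limma adjusted p = 3.6e-09) and -0.59 (adjusted p = 5.7e-07). HCF107, a protein that stabilises psbH transcripts, rose in Col by 0.74 and in fve-4 by 0.45 (limma adjusted p = 4.3e-07 and 0.00013). psbH was called in neither, but it had only 4 to 29 reads per library. Its standard error of 0.44 in each genotype is too large to decide on changes of that size.

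Of 18 nuclear partners, 9 were lower and 3 higher with warmth in Col, and 9 lower and 2 higher in fve-4. In either direction 66.7% were called in Col and 61.1% in fve-4, against 61.9% and 39.2% of all tested genes, so the total in Col was near that of all genes. ATPC1 and ATPD, for nuclear subunits of the ATP synthase, fell in Col by 0.68 and 0.77 (limma adjusted p = 2e-08 and 2.9e-08), in the libraries in which all 6 chloroplast genes of that enzyme were higher. At 27 °C, fve-4 differed from Col by -0.02 for ATPC1 (not called) and by 0.15 for ATPD (adjusted p = 0.04). Of the 18 partners, 2 were higher and 3 lower in fve-4 than in Col at 27 °C, and 13 had a difference below 0. Of all tested genes, 20.9% were higher and 17.6% lower there. NDHN, for a nuclear NDH subunit, had the highest difference of the 18, at 0.16 (limma adjusted p = 0.021). The 9 chloroplast NDH genes named and tested here were lower in that comparison. Values of NDHL, NDHM and NDHO, the other nuclear NDH genes compared, are not given here.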

How the data were processed

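The deposited table holds TPM, as made by the authors, for 27655 genes in 12 libraries; its headers mention gene counts, yet every column adds up to 1000000. Per the submitters' processing notes, the tools were fastp 0.20.1, DESeq2 1.26.0 and HISAT2 2.1.10 and the build TAIR10, with no role or order; read counter, strand setting and poly(A) selection are not given in the sources used here. Per the labels' protocols, an Eastep kit gave total RNA and a NEBNext Ultra kit the libraries. Whole read numbers were recovered from TPM and gene length for all 23821 genes above 0 (tolerance 0.0001), by the RefSeq gene span (TAIR10.1) for 23650 and by a length found from the values for 171; they give the depth. That assembly was used for names, lengths and neighbours, and no coordinates or sequences are given.

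Differences were tested, two-sided, with limma 3.58.1 (R 4.3.3) on log2(TPM + 1), which understates changes of low genes, with a variance trend, on 19863 genes with at least 1 TPM in at least 3 libraries; 1 model of 4 group means gave 5 contrasts, each adjusted by Benjamini-Hochberg over all genes tested. The fit was tested on simulated data. Alternatives took another scaling, pseudocount, filter or threshold, fitted no variance trend, only the libraries compared or a replicate block, used limma-voom on the recovered reads, or left out libraries. Genes named are a fixed list of sentinels, the called gene with the largest rise and fall per functional group and contrast (higher group's mean 5 TPM or more), and the 3 largest called changes per nuclear list, of which some are given; rpl14, atpE, rpl32, SIG1 and SIG3 were chosen after their values were seen. Of the 73 genes tested, 71 are reported by gene, and the others enter only counts, sums and medians. The genes, lists and alternatives were chosen with earlier results of these data known. Python 3.11.15 with pandas 2.3.3, numpy 2.4.6 and matplotlib 3.10.9 prepared tables and figures.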

Additional observations from a re-analysis of the deposited data

Results flagged for a closer look

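The warm response differed between fve-4 and Col, by limma's test of the difference itself, in 23 of the 71 chloroplast genes reported here, at an adjusted p under 0.05. Of these 23, 21 were below 0 and 2 above. Among all 73 tested chloroplast genes, 34.2% were called in either direction, against 32.4% of all tested genes, so the total was near that of all genes. Calls below 0 made up 31.5% of the chloroplast genes, against 18.0% of all tested genes. The values are log2 changes in fve-4 minus those in Col. Among genes of the rps19 to rpoA run they were -2.44 for rps19, -1.44 for rpl22, -0.90 for rps3, -0.98 for rpl16, -1.12 for rpl14, -1.46 for rpl36 and -1.46 for rpoA. Those of the other polymerase genes were -1.08 for rpoB, -1.27 for rpoC1 and -1.29 for rpoC2. Other ribosomal genes gave -1.88 for rps15 and -1.12 for rps2, and NDH genes -0.78 for ndhJ, -1.29 for ndhG, -1.31 for ndhA and -1.34 for ndhH. The remaining genes below 0 were atpA with -0.52, accD with -0.90, ycf4 with -1.23, ycf1 with -1.25 and the unnamed ATCG00360 with -0.95. Above 0 were psbK with 0.76 and psbI with 0.39.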

How the results depend on the processing

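Of the genes called, 8 of 36 in Col with warmth, 11 of 17 in fve-4 with warmth, 16 of 25 in the interaction, 1 of 15 in fve-4 against Col at 21 °C and 27 of 44 at 27 °C kept their call under every alternative. With warmth in Col, the count of higher genes became 19 with quantile normalization, 13 with equal chloroplast totals, 15 at an adjusted p under 0.01, 40 without the pair of libraries named next, and 16 to 37 without 1 library; the count of lower genes became 8 with equal totals, 1 without the variance trend or with only the Col libraries, 0 at 0.01, 0 without replicate 2 of Col at 21 °C and replicate 1 of fve-4 at 27 °C together (an alternative chosen after seeing the data), and 0 to 4 without 1 library. With warmth in fve-4, higher genes became 13 without those 2 libraries and 4 to 10 without 1, and lower genes 8 at 0.01 and 8 to 15 without 1. In the interaction, genes above 0 became 1 with no filter, 0 without the trend and 0 at 0.01, and 0 to 3 without 1 library (below 0, 18 to 27). At 21 °C, genes higher in fve-4 became 5 with equal totals, 0 at 0.01 and 1 to 3 without 1 library, and lower genes 3 at 0.01 and 6 to 20 without 1. At 27 °C, higher genes became 8 with equal totals, 1 at 0.01, 5 without those 2 libraries and 2 to 6 without 1 (lower genes, 33 to 46). Among single genes called, 1 sign changed, that of clpP at 27 °C, to 0.0127 with equal totals, by construction a comparison with the other chloroplast genes; the cause of the other changes was not tested. Ratios of summed levels without 1 library ran from 1.124 to 1.36 (warmth in Col), 1.06 to 1.269 (in fve-4), 0.7603 to 0.9198 (21 °C) and 0.717 to 0.8583 (27 °C). Summary values for warmth in fve-4 also turned direction: the summed ratio was 0.9802 as a share of reads, and the median difference was 0.04 without replicate 1 of fve-4 at 27 °C.

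The shared replicate numbers did not pair the samples (correlation of deviations from -0.135 to 0.187 over all genes). With a replicate block the counts higher and lower were 32 and 3, 4 and 14, 2 and 23, 3 and 13, and 3 and 43, in the order above. Low read numbers limit rps19, rps15, ndhI, ndhG, accD and psaC in fve-4 at 27 °C. The same holds, among others, for psbZ in fve-4 at 21 °C and for petG and ATCG00065 in Col at 21 °C.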
